A study of Homo sapiens with 3 samples.

Results

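The genes described here are 40 human factors that make ribosomes in the nucleolus, chosen by name. The choice used no measured value directly, but it was made with earlier results of these data known. They cover the small nucleolar ribonucleoproteins, the most abundant nucleolar proteins, RNA polymerase I transcription, and the assembly of the small and large ribosomal subunits. Of the 40 genes, 39 had transcripts in the expression tables, among 52992 genes there, and all 39 passed the filter on low counts among 20629 genes tested. BOP1, a large subunit assembly factor, had no transcript matched and was not analysed here. RNA was sequenced from TE5, a cell line of human esophageal squamous cell carcinoma, transfected with a scrambled control (scramble, 1 library) or with a short hairpin RNA against KLF5 (shKLF5, 2 libraries), and all 3 libraries came from cells harvested after 48 h. The labels number the shKLF5 libraries 1 and 2 and do not say whether these are separate hairpins or separate cultures, so the p-values reflect how far these 2 libraries differ from each other, a spread that may be only technical. Scramble has no replicate and is assumed to vary as they do. KLF5, a zinc finger transcription factor, is the gene under test, and the series sets it beside TP63 and SOX2 as regulators of this tumour type.

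Ribosomes are built in the nucleolus, where RNA polymerase I transcribes a long precursor ribosomal RNA. Box C/D and box H/ACA small nucleolar ribonucleoproteins methylate it and convert uridines to pseudouridine, the small subunit processome folds and cleaves its first part, and further factors assemble and export each subunit. Demand for ribosomes is high in dividing cells, and MYC, which binds the E-box CACGTG, is a well-known activator of these genes.

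Library totals lay between 32720563 and 33544752 estimated counts. KLF5 had 8402 counts with the scrambled control, against 1333 (library 1) and 1531 (library 2) with shKLF5, a log2 fold change of -2.96 (SE 0.34) with an adjusted p of 0.182 by edgeR's quasi-likelihood test. For KLF5 the adjusted p was 0.0149 by edgeR's legacy fit and 1.5e-06 by DESeq2, and from 0.129 to 0.611 under the other alternatives. All 10 squamous markers were detected, and their summed TPM (length-corrected transcript share of each library) was 3927 in scramble, 1250 in library 1 and 690 in library 2. Summed TPM of 8 glandular markers stayed between 0.779 and 1.08, with MUC2 at 0 counts in all 3 libraries. Summed TPM of the 8 fibroblast markers was 16.9, 26.6 and 15.9, of which COL1A1 gave 13.0, 21.4 and 14.0. The 7 leukocyte markers summed to 4.30, 11.0 and 14.8 TPM, mostly from CD68, and the 4 endothelial markers in the tables summed to 0.347, 1.17 and 1.48. Mitochondrially encoded transcripts took between 31.1% (library 1) and 38.1% (scramble) of counts. The part of these differences in the results for ribosome biogenesis genes was not tested, and fewer cells of a type and less RNA per cell cannot be told apart in bulk libraries.

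Promoter windows, from 250 bases before to 50 bases after each RefSeq start on GRCh38.p14, were found for 36 of the 39 measured genes (44 windows). The E-box core CACGTG, which reads the same on both strands, lay in the windows of 17 of the 36 genes (47.2%). Of 11668 tested protein-coding genes with a window, 11.9% had it. Counted by window it was in 18 of 44 (40.9%), against 7.26% of 35116 windows. Of the 19 E-boxes in the windows of these genes, 16 began within the last 100 bases, from 50 before to 50 after the start. The same 100 bases held an E-box in 16 of the 36 genes and in 4.88% of the tested protein-coding genes. That stretch was chosen after the positions were seen. The lines here give the E-box stretches nearest to a start, 30 bases each, written 5′ to 3′ on the gene's strand from RefSeq, with the E-box in capitals. They are shown because the E-box was the motif, of those searched, whose share in these genes most exceeded that in all tested genes.
RRP9 (chr3:51941892-51941921, minus strand): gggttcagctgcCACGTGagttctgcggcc
WDR43 (chr2:28894658-28894687, plus strand): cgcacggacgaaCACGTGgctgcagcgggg
FBL (chr19:39846356-39846385, minus strand): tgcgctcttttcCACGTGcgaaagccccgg
GNL3 (chr3:52686026-52686055, plus strand): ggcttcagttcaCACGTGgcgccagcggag
UTP20 (chr12:101280083-101280112, plus strand): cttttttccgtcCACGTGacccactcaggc
NOP10 (chr15:34343130-34343159, minus strand): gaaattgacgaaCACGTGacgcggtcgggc
PES1 (chr22:30591880-30591909, minus strand): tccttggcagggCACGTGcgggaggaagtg
MRTO4 (chr1:19251807-19251836, plus strand): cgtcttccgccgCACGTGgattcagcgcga
UTP20 and NOP10 carry the E-box just before the start, in RRP9 it overlaps the start, and the other 5 carry it just after. They include genes of the small nucleolar ribonucleoproteins (FBL, NOP10), the small subunit processome (RRP9, WDR43, UTP20) and the large subunit (PES1, MRTO4). A match is a description of letters in a window, not a binding site.

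**Figure D1:**
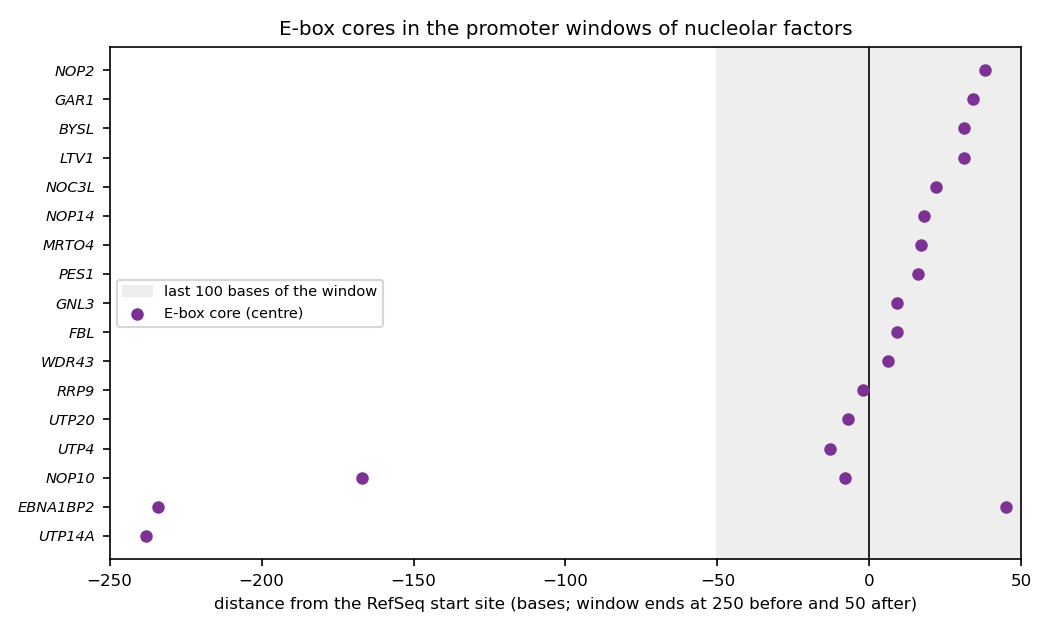
Distance in bases of each E-box core from the RefSeq start (x axis) for every ribosome biogenesis gene with a match (y axis, 1 row per gene), with the last 100 bases of the window shaded. Of 19 E-boxes, 16 sit in the shaded part.

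A further 5 motifs were searched. The GC box core GGGCGG (either strand), the kind of sequence bound by zinc finger factors of the SP and KLF families, was in 28 of 36 genes (77.8%) against 74.0% of tested protein-coding genes. The longer CACCC form CCACACCC (either strand) was in 0 of 36 genes against 4.49%. The ETS core CCGGAAGT (either strand) was in 10 of 36 (27.8%) against 8.76%, and CCAAT (either strand) in 17 of 36 (47.2%) against 42.8%. The TATA box TATAAA (either strand) was in 2 of 36 (5.56%) against 9.46%. The 3 genes with the lowest fold changes below, NCL, NPM1 and NOP56, had no E-box in their windows. Their 200 bases before the start are shown for that reason, with the GC box core in capitals (1 in NCL, 0 in NPM1 and 3 in NOP56).
NCL (chr2:231464485-231464684, minus strand): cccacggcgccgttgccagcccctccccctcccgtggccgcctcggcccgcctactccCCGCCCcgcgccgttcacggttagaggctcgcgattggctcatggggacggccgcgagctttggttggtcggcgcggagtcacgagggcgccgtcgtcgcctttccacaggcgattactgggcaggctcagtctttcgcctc
NPM1 (chr5:171387649-171387848, plus strand): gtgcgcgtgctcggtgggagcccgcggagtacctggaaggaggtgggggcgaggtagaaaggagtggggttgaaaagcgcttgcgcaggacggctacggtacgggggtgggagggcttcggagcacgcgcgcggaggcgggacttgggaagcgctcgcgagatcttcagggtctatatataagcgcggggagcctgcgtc
NOP56 (chr20:2652432-2652631, plus strand): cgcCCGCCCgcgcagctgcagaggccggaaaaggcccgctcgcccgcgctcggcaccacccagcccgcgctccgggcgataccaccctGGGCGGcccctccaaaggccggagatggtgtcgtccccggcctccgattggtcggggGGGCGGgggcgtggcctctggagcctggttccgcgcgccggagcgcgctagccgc
The 17 genes with an E-box centred on a log2 fold change of -0.29 (from -0.64 to 0.08), and the 19 with a window but no E-box centred on -0.21 (from -0.87 to 0.15). The first range lies inside the second. Among all tested protein-coding genes at a mean CPM (reads per 1e6 reads, after TMM scaling) of at least 5, the medians were -0.16 with an E-box (1101 genes) and -0.18 without (7271 genes).

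The ribosome biogenesis genes had, as a group, slightly lower values with shKLF5 under the main scaling (TMM, which corrects for differences in library make-up), a direction that reversed with library size alone, and none of them passed the test. No gene of 39 had an adjusted p under 0.05 by edgeR's quasi-likelihood test, and the background was 0% of 20629 genes tested. Only NCL and NPM1 had an unadjusted p under 0.05, both with the lower value in shKLF5. Of all genes tested 3.5% did so in that direction, as did 5.08% of the 11017 genes at a mean CPM of at least 5. In the higher direction it was 0 of the 39, against 5.68% of all genes tested and 245 of the 11017 genes at a mean CPM of at least 5. DESeq2 called 0.681% of the 17029 genes to which it gave an adjusted p, and edgeR's legacy fit called 0.102% of all genes tested. Neither called any of the 39. The smallest adjusted p of any of these genes under any alternative was 0.379, for RRP12.

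By value, 22 of the 39 genes lay below scramble in both shKLF5 libraries. None of the others (0 of 39) lay above it in both, and the remaining 17 had 1 library on each side. When only genes at a mean CPM of at least 5 were fitted, 8 lay above it in both and 16 below. All 39 have a mean CPM of at least 5, and among all genes at that level 50.8% were lower in both and 23.5% were higher in both, while over all genes tested the shares were 36.5% and 37.9%. For the 39 the median log2 fold change was -0.24, against 0.04 for all genes tested and -0.16 for genes at a mean CPM of at least 5. The direction of the group depended on scaling, since its median became 0.19 when libraries were scaled by their size alone, while the median of all genes moved from 0.04 to 0.47. Under that scaling 7 genes were lower and 23 higher in both libraries, against 12.5% and 65.2% of all genes. Library size alone shifts all genes by about the same amount, so a gene's sign under it follows from its main fold change. Relative to the median of all genes, 33 of the 39 lay below it under the main scaling, against 50% of all genes and 66.5% of genes at a mean CPM of at least 5. That number was 23 when only genes at a mean CPM of at least 5 were fitted, 25 with limma on TPM, 28 without library 1, 35 without library 2 and 38 with no filter on low counts.

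**Figure D2:**
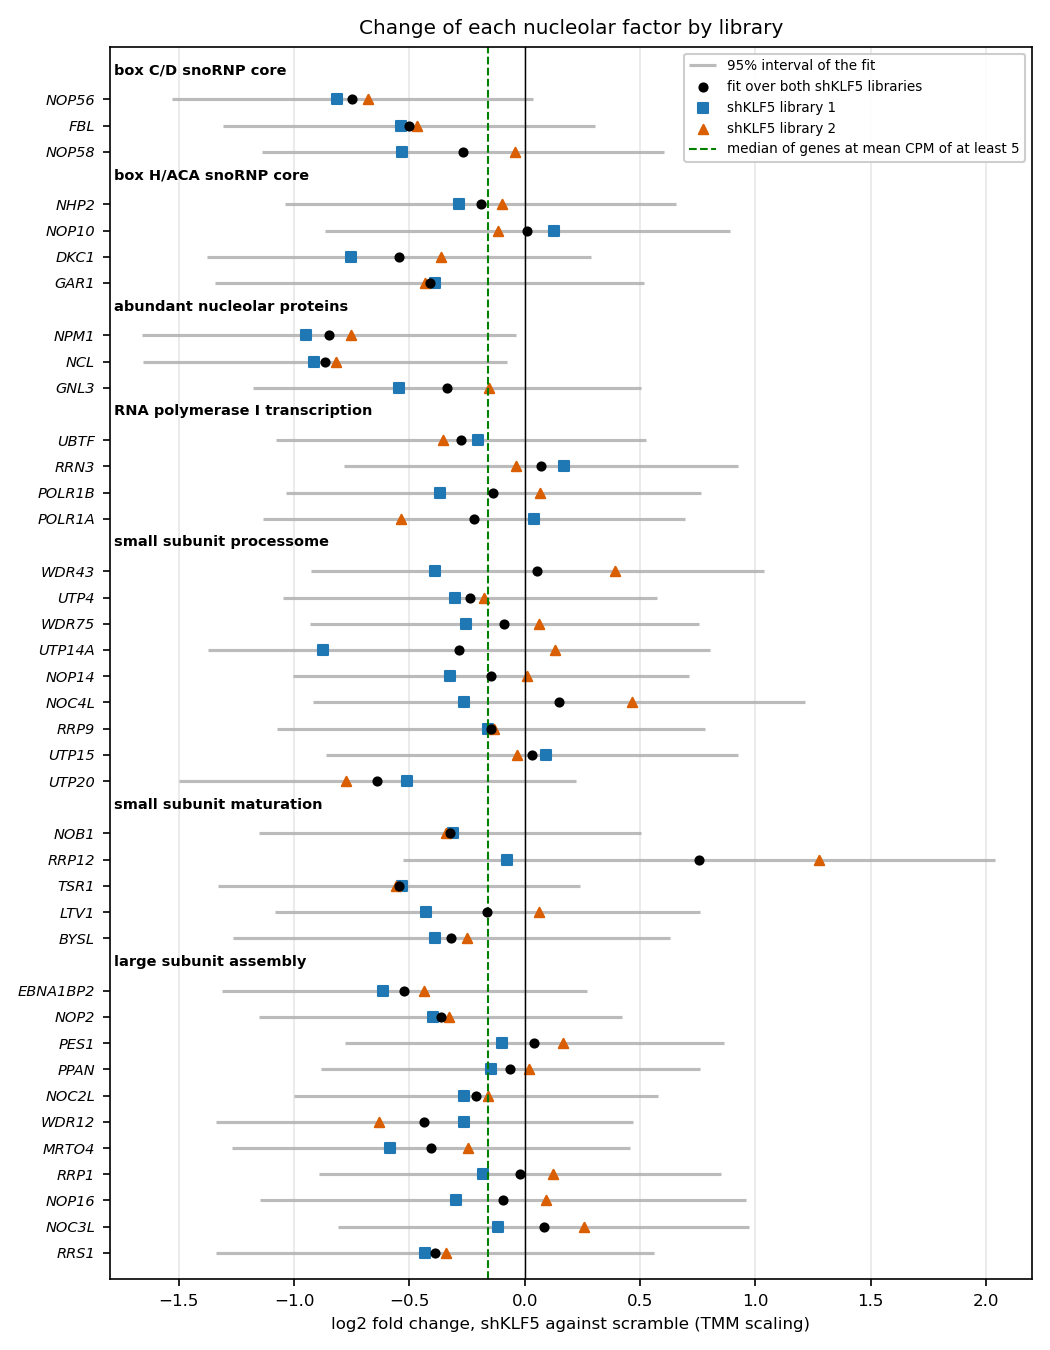
Log2 fold change against scramble under the main scaling (x axis) for 39 ribosome biogenesis genes (y axis, grouped by role): the fit with its 95% interval, and shKLF5 libraries 1 and 2 as separate points. The dashed line is the median of genes at a mean CPM of at least 5 (-0.16), and with library size alone the median of the 39 genes moves from -0.24 to 0.19.

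Mean levels over the 3 libraries ran from 4.21 to 719 TPM. NPM1 had the highest mean TPM of the 39 and NCL came next, at 297, followed by NOP56, EBNA1BP2 and FBL. UTP20 and POLR1A had the lowest, at 4.21 and 6.63 TPM. Summed over the 39 genes, TPM was 2653 in scramble, 2339 in library 1 and 2610 in library 2. TPM is a share within each library, so this sum is not corrected for the change in make-up that TMM scaling corrects for. It is also dominated by NPM1 (877, 595 and 684 TPM, in that order) and NCL (360, 261 and 270 TPM). On log2(TPM + 1), 24 of the 39 genes were higher and 7 lower in both shKLF5 libraries. The shares of all genes tested were 65.2% and 11.3%. The lower sum is therefore not that of most of these genes.

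**Figure D3:**
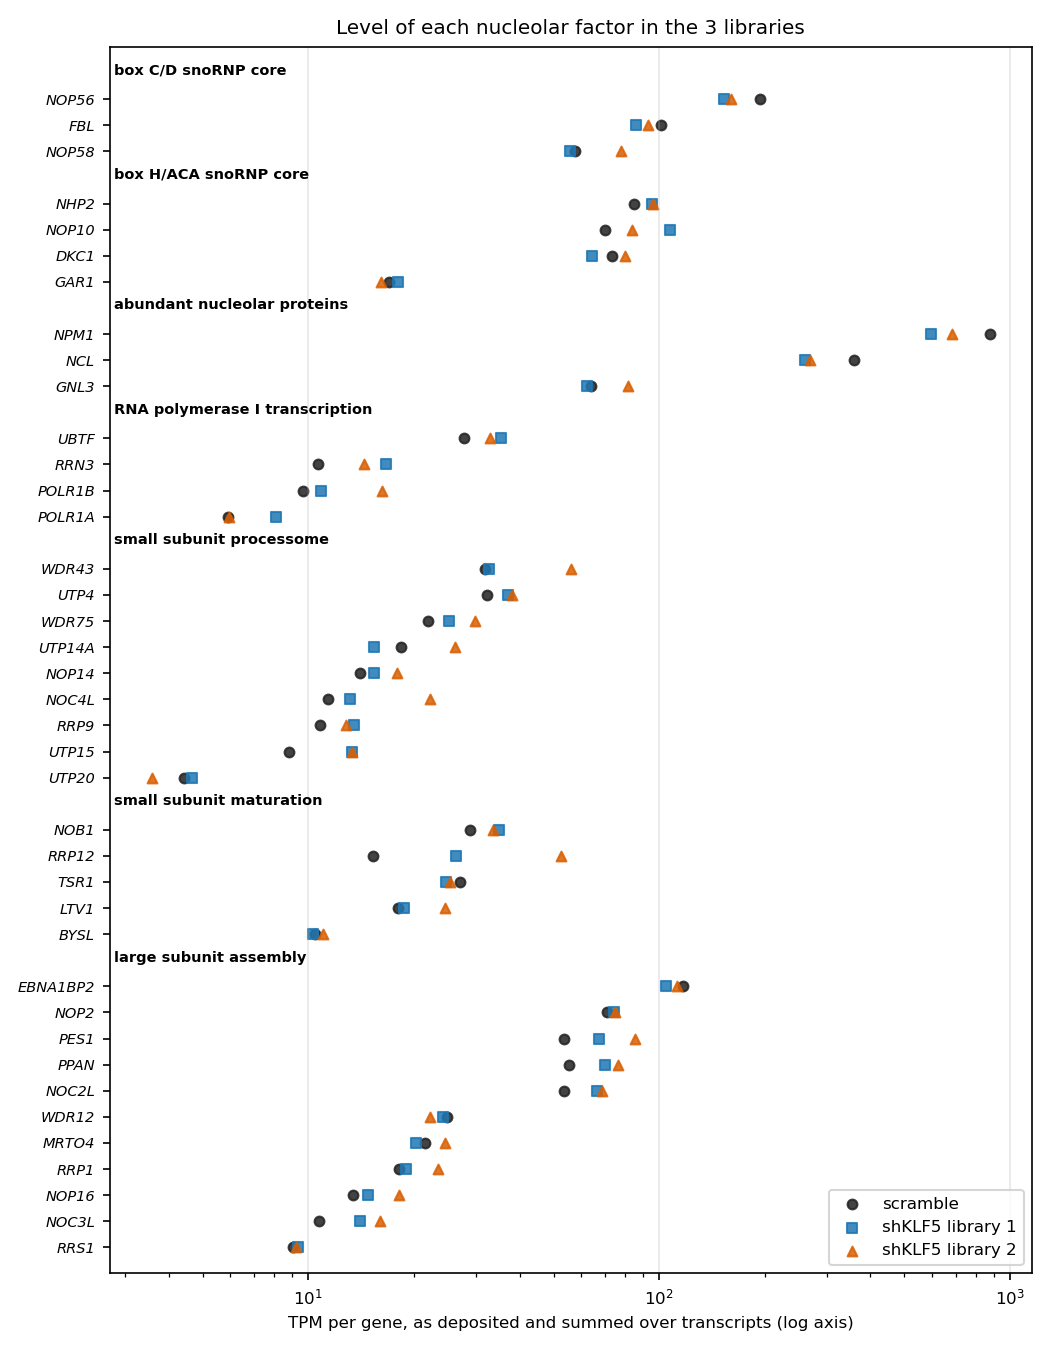
TPM on a log axis (x) in scramble, shKLF5 library 1 and shKLF5 library 2 for 39 ribosome biogenesis genes (y), grouped by role. NPM1 is the highest gene and UTP20 the lowest, and the points of most genes lie close together.

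NCL and NPM1, the most abundant of these genes, had the lowest fold changes. NCL (chr2:231453531-231483641, minus strand, GRCh38, GENCODE) encodes nucleolin, which binds precursor ribosomal RNA, and its TMM-scaled CPM was 619 in scramble, 329 in library 1 and 351 in library 2. Its log2 fold change was -0.87 (SE 0.34, 95% interval -1.66 to -0.08, adjusted p = 0.509 by edgeR's quasi-likelihood test), and it was -0.44 with library size alone. NPM1 (chr5:171387116-171411137, plus strand) encodes nucleophosmin, a chaperone of ribosome assembly, and its CPM was 874, 453 and 518, in that order. Its log2 fold change was -0.85 (SE 0.35, 95% interval -1.66 to -0.04, edgeR adjusted p = 0.530), and -0.42 with library size alone. NPM1 has many processed pseudogenes, so the division of its reads is uncertain. GNL3, or nucleostemin, a GTPase of the nucleolus, was at 94.8, 64.9 and 85.1 CPM, a log2 fold change of -0.34 that becomes 0.09 with library size alone. For each of NCL and NPM1, both shKLF5 libraries were lower than scramble on both scales, and library 1 was the lower of the pair.

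Box C/D ribonucleoprotein genes, whose proteins carry out 2′-O-methylation, had log2 fold changes with a median of -0.50, and all 3 were lower in both libraries. NOP56 (chr20:2652145-2658393, plus strand), a core scaffold protein, was at 169 CPM in scramble, 95.8 in library 1 and 105 in library 2, and its log2 fold change was -0.75 (SE 0.34, edgeR adjusted p = 0.557). FBL encodes fibrillarin, the methyltransferase itself, and its CPM was 71.4, 49.1 and 51.6, with a log2 fold change of -0.50 (SE 0.35, edgeR adjusted p = 0.678). NOP58, the partner of NOP56, was at 83.7, 57.8 and 81.3 CPM, a fold change of -0.27 on the log2 scale. NOP56 and FBL were lower with library size alone too, at -0.32 and -0.07, and NOP58 was at 0.16.

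NOP56 needs a reservation on its transcripts. Transcripts annotated as protein-coding held 22.3% (scramble), 26.0% (library 1) and 21.9% (library 2) of its counts, and the rest was on other transcripts of the same gene. The value of NOP56 is therefore mostly that of transcripts not annotated as coding.

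Box H/ACA genes, whose proteins carry out pseudouridylation, had a median of -0.30, and 3 of 4 were lower in both libraries. DKC1 encodes dyskerin, the pseudouridine synthase, and its CPM was 116 in scramble, 68.9 in library 1 and 90.5 in library 2 (log2 fold change -0.55, SE 0.36, edgeR adjusted p = 0.666). GAR1, a further core protein of these particles, was at 18.3, 14.0 and 13.5 CPM, a log2 fold change of -0.41 that becomes 0.02 with library size alone. NHP2, which binds their guide RNA, was at 42.4, 34.7 and 39.5 CPM, a log2 fold change of -0.19 that becomes 0.24 with library size alone. NOP10, the smallest core protein, was the exception, at 0.01, with library 1 at 0.13 and library 2 at -0.11. On this scale DKC1 had the lowest value of the 4.

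RNA polymerase I genes had a median of -0.18 on the log2 scale, and 1 of the 4 was lower in both libraries. UBTF, an architectural factor that binds the ribosomal DNA, was the one lower in both, at 94.4 CPM in scramble, 82.1 in library 1 and 73.9 in library 2 (log2 fold change -0.28, SE 0.35, edgeR adjusted p = 0.817). POLR1A, the largest polymerase subunit, was at 55.2, 56.7 and 38.1 CPM, with library 1 at 0.04 and library 2 at -0.54 on the log2 scale. POLR1B, the second subunit, was at -0.14, and RRN3, which recruits the polymerase to its promoter, at 0.07. RRN3 has near-identical pseudogenes, so the division of its reads is uncertain. With library size alone all 4 were above 0, from 0.15 for UBTF to 0.50 for RRN3.

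Genes of the small subunit processome had a median of -0.15, and 3 of 9 were lower in both libraries. UTP20, a long scaffold protein, had the lowest value among them, at 43.1 CPM in scramble, 30.2 in library 1 and 25.1 in library 2. Its log2 fold change was -0.64 (SE 0.37, edgeR adjusted p = 0.624), and -0.21 with library size alone. UTP4, a subunit of the early processome, was at 73.5, 59.5 and 65.1 CPM (log2 fold change -0.24, and 0.19 with library size alone). RRP9, which binds the U3 small nucleolar RNA, was at -0.15.

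Several processome genes differed more between the 2 shKLF5 libraries than from scramble. WDR43 was at 66.6 CPM in scramble, 50.9 in library 1 and 87.4 in library 2, so that scramble lay between them (log2 values -0.39 and 0.39). NOC4L was at 16.2, 13.5 and 22.4 CPM, again with scramble between them (-0.26 and 0.47). UTP14A was at 46.8, 25.5 and 51.3 CPM, and its library values were -0.87 and 0.13. UTP14A has a retrogene copy, UTP14C, so the division of its reads is uncertain. WDR75 and NOP14 were at -0.09 and -0.15, and UTP15 at 0.03.

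Maturation factors of the small subunit held both a low and the highest fold change of the 39 genes. TSR1, a GTPase-like factor that stays on the late small subunit, was at 123 CPM in scramble, 85.3 in library 1 and 83.8 in library 2. Its log2 fold change was -0.54 (SE 0.34, edgeR adjusted p = 0.643), with -0.53 and -0.56 in the 2 libraries. NOB1, the nuclease that makes the final cut of the 18S ribosomal RNA, was at 48.9, 39.5 and 38.6 CPM (log2 fold change -0.33, and 0.10 with library size alone). BYSL and LTV1, which bind the late small subunit precursor, were at -0.32 and -0.16.

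RRP12 (chr10:97356358-97426076, minus strand), a HEAT-repeat protein of subunit export, was the gene with the highest value and the largest gap between libraries. Its CPM was 56.7 in scramble, 53.8 in library 1 and 137 in library 2, so only library 2 stood apart. The fitted log2 fold change of 0.75 (SE 0.55, 95% interval -0.53 to 2.04, edgeR adjusted p = 0.688) rests on library 2, at 1.28, since library 1 alone was at -0.08. On the TPM scale, which corrects for transcript length and is not TMM-scaled, the values were 15.3, 26.3 and 52.5, and library 1 also lay above scramble. Its counts before TMM scaling were 1507, 1927 and 4780, so library 1 was above scramble there too. The main coding transcript RRP12-202 carried 1351, 1723 and 4080 estimated counts, and the noncoding RRP12-207 carried 102, 124 and 506, so the excess in library 2 was in the coding transcript as well.

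Large subunit genes had a median of -0.21, and 6 of 11 were lower in both libraries. EBNA1BP2, a processing factor of the large subunit precursor, was at 144 CPM in scramble, 93.7 in library 1 and 106 in library 2 (log2 fold change -0.52, SE 0.34, edgeR adjusted p = 0.662). WDR12, which forms the PeBoW complex with PES1 and BOP1, was at 31.5, 26.3 and 20.3 CPM, a log2 fold change of -0.44 that becomes -0.01 with library size alone. Its partner PES1 was at 102, 95.6 and 115 CPM, a log2 fold change of 0.04. Of the pair, WDR12 was lower in both libraries and PES1 went opposite ways.

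The remaining large subunit genes formed 2 sets by value. MRTO4 (-0.41), RRS1 (-0.39), NOP2 (-0.36) and NOC2L (-0.21) were lower in both libraries. NOP16 (-0.09), PPAN (-0.06), RRP1 (-0.02) and NOC3L (0.08) had libraries on opposite sides of scramble. MRTO4 holds the place of the stalk protein on the large subunit precursor, RRS1 brings in the 5S particle, NOP2 is a methyltransferase of 28S ribosomal RNA, and NOC2L and NOC3L act on precursor particles of the large subunit. PPAN shares exons with a readthrough to its neighbour P2RY11, so the division of its reads is uncertain. NOP16 rests on noncoding transcripts: 87.9% of its scramble counts were on retained-intron transcripts, and 5 of its 6 coding transcripts in GENCODE were not matched in the tables.

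Fold change followed abundance only loosely. Across the 39 genes, log2 mean CPM and log2 fold change had a Pearson r of -0.38 and a Spearman rho of -0.31, which became -0.12 and -0.19 without the 2 most abundant genes. Genes are not independent replicates, and all points share the same 3 libraries. Across the 11017 genes at a mean CPM of at least 5 the values were -0.16 and -0.15. Set against genes of like abundance, 25 of the 39 lay below the median of their bin, 8 lay below its lower quartile, and RRP12 alone lay above its upper quartile. The bin from 320 CPM upwards, which holds NCL and NPM1, had a median of -0.50 and a lower quartile of -0.77 over 228 genes.

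**Figure D4:**
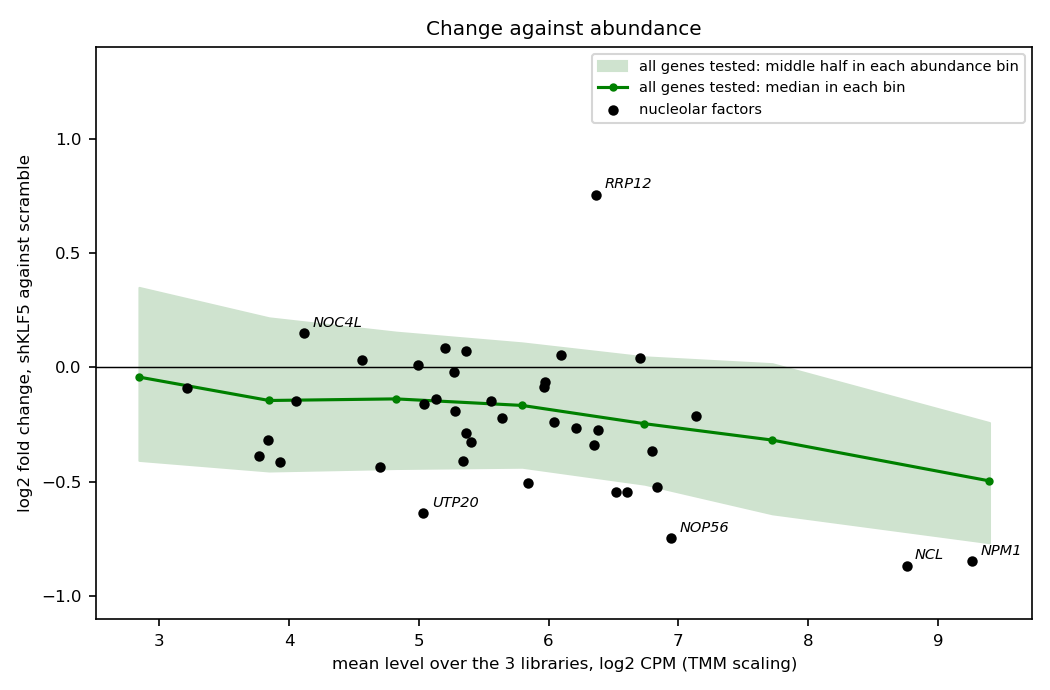
Log2 mean CPM (x axis) against log2 fold change under the main scaling (y axis) for the 39 ribosome biogenesis genes, with the median and the quartiles of all genes by abundance bin in green. NCL and NPM1 sit below the lower quartile of their bin (-0.77), RRP12 sits above its own bin, and with library size alone the median of the 39 genes moves from -0.24 to 0.19.

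The 2 shKLF5 libraries lay close on most of these genes. The absolute log2 difference between library 2 and library 1 had a median of 0.24 over the 39 genes, and 5 of 39 (12.8%) exceeded 0.5. Over genes at a mean CPM of at least 5 the median was 0.33 and 32.3% exceeded 0.5. Of the 39, 29 were higher in library 2, against 47.4% of the genes at that level. Genes above a gap of 0.5 were RRP12 at 1.35, UTP14A at 1.01, WDR43 at 0.78, NOC4L at 0.73 and POLR1A at -0.57 (library 2 minus library 1).

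Transcript make-up was also read for each gene, since reads on retained introns count toward a gene but not its protein. Across the 39 genes, coding transcripts held a median of 92.4% (scramble), 93.0% (library 1) and 90.0% (library 2) of the counts. The share was lower in both libraries in 14 of 39, against 42% of protein-coding genes at a mean CPM of at least 5. It was lower in library 1 in 14 of 39, against 49.6% of them, and lower in library 2 in 28 of 39, against 61%. The retained-intron share of counts was higher in both libraries in 11 of 39 genes, against 26.3%, in library 1 in 12, against 31.7%, and in library 2 in 24, against 39.9%. It was lower in library 1 in 16 of 39, against 2661 of 10376, and in library 2 in 4, against 1816. Genes with no such transcript stay at 0, so these shares also depend on annotation. The median share in scramble was 1.58% in the 39 and 0.444% in the 10376. UBTF had 0.321% of its counts on retained introns in scramble, 0.915% in library 1 and 1.92% in library 2, and by TPM, which weights short transcripts more, 3.50%, 8.52% and 15.8%. NOB1 had 2.42%, 4.92% and 6.62% by counts, in that order, and 8.86%, 16.9% and 21.4% by TPM. The coding share of both genes was lower in both libraries, and these 2 were picked after their values were seen.

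Small nucleolar RNA genes lie inside introns of some of these genes. There were 23 named ones inside 8 of the 39 (NOP56, NOP58, DKC1, NCL, GNL3, WDR43, TSR1 and PPAN), and the median log2 fold change of these 8 was -0.44, with 6 lower in both libraries. The other 31 had a median of -0.21, with 16 lower in both. The 8 hosts include NCL and NOP56, which ranked 1 and 3 from the lowest fold change of the 39. The other 147 tested protein-coding genes that host such RNAs had a median of -0.25, with 93 lower in both. Among all genes at a mean CPM of at least 5, 50.8% were lower in both. The 12 long noncoding hosts had a median of -0.13, with 3 lower in both and SNHG3 the lowest, at 1982, 1236 and 1394 counts (log2 fold change -0.999, edgeR adjusted p = 0.476), and SNHG12 at -0.41.

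Other genes of the pathway, listed by role, gave medians between -0.31 and -0.07, and none was called. Of 33 other processome factors, 16 were lower and 1 higher in both libraries (median -0.12), with KRR1 at -0.70 and NOL11 at -0.53. Of 9 other small subunit maturation factors 6 were lower and 0 higher (median -0.31), with PRMT3, an arginine methyltransferase, at 1808, 1368 and 785 counts (log2 fold change -1.16, SE 0.42, edgeR adjusted p = 0.476), and DIMT1 at -0.56. Of 48 other large subunit factors 19 were lower and 11 higher (median -0.07), with RRP1B at -0.74 and DDX21 at -0.59. Of 18 other polymerase I factors 10 were lower and 3 higher (median -0.15), with TCOF1 at -0.47 and POLR1E at -0.54. Of 17 exosome and trimming factors 10 were lower and 2 higher (median -0.27), with EXOSC9 at -0.66 and EXOSC10 at -0.64. All these values are under the main scaling, where 50.8% of genes at a mean CPM of at least 5 were lower and 23.5% higher in both. In TPM the sum of the other processome factors was 644 in scramble, 725 in library 1 and 812 in library 2, the other direction. For the 39 genes the TPM sum did not rise (2653, 2339 and 2610, in that order). Their median log2 fold change with library size alone, a different measure, was 0.19.

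The ribosomal proteins are the parts that these factors assemble. Of 32 small subunit proteins 20 were lower and 1 higher in both libraries (median -0.18), with RPSA at -0.48 and RPS4X at -0.49. Of 47 large subunit proteins 39 were lower and 2 higher (median -0.25), with RPL3 at -0.68 and RPL17 at -0.62. Among all genes at a mean CPM of at least 5, 50.8% were lower and 23.5% higher in both. Most ribosomal protein genes are abundant, and the medians of all genes tested were also low at such levels. They were -0.25 from 80 to 160 CPM, -0.32 from 160 to 320 CPM and -0.50 from 320 CPM upwards. On the TPM scale, which is not TMM-scaled, their direction was the other way: the sum over the small subunit proteins was 14034 in scramble, 15349 in library 1 and 17152 in library 2, and that over the large subunit proteins was 22716, 24549 and 26732. These genes have many processed pseudogenes, so the division of their reads is uncertain.

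MYC itself had 4371 counts (scramble), 4264 (library 1) and 3834 (library 2), and was at 68.3, 69.1 and 59.7 TPM. Its log2 fold change was -0.52 (SE 0.34, edgeR adjusted p = 0.661), and on the TPM scale library 1 was not lower than scramble. The 11 MYC family genes had a median of -0.01, with 3 lower and 4 higher in both libraries. MXD3, a repressor partner of MAX, was at -0.83, and MYCL at 0.78.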

How the data were processed

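RNA-seq values of 3 libraries were used, each group taken from the labels. The authors deposited 1 table per library with kallisto's columns, and kallisto, DESeq2 and the build hg19 are named, without tool versions, in the submitters' processing notes. For the transcript set, index and strand setting the sources used here say nothing. The deposited estimated counts are per transcript and not normalised, and the deposited TPM values are counts per effective length scaled to a fixed sum, per the file headers. The deposited length and effective length columns, in bases, served for length-scaled counts, per the file headers.

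Of 196354 transcripts, 181857 (92.6%) matched GENCODE 29. The unmatched ones held 3.05% to 3.42% of counts. Counts were summed per gene and rounded. The test was the quasi-likelihood F test of edgeR 4.0.16 (R 4.3.3) after filterByExpr and TMM scaling, comparing both shKLF5 libraries with the scramble library, with Benjamini-Hochberg adjustment over 20629 genes at 0.05. TMM factors were 0.820 for scramble, 1.11 for library 1 and 1.10 for library 2. There was 1 residual degree of freedom, and the prior degrees of freedom were 6.86. CPM are TMM-scaled, and single-library log2 values used a prior count of 2 and have no test. The test was checked on simulated data.

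Alternatives were other size factors, filters and gene sets, length-scaled counts, the legacy fit, DESeq2 1.42.0, limma 3.58.1 on log2(TPM + 1), and each shKLF5 library left out. In the section on how the results depend on the processing, single-gene fold changes are given less the median of all genes tested. Single-gene values given with library size alone are plain log2 fold changes, and the median of all genes under that scaling was 0.47. Members and lists were chosen with earlier results of these data known. Full values are given for the 2 genes of smallest p and the gene of largest mean TPM in each role, for those whose libraries went opposite ways by over 0.2 log2, and for KLF5 and MYC. From each further list the 2 genes of smallest p are named, and genes outside this rule were chosen after their values were seen. Promoter sequences are RefSeq's on GRCh38.p14, and NOP58, RRP12 and RRS1 had no entry. Counts are estimates: their counting error is that of reads, not of molecules, and the division of reads among transcripts adds further uncertainty.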

Additional observations from a re-analysis of the deposited data

How the results depend on the processing

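The number of genes called was 0 by the quasi-likelihood test, 21 by edgeR's legacy fit and 116 by DESeq2, and none of the 39 was called under any setting. The 22 genes lower in both libraries became 7 with library size alone and 7 with limma, and with 1 library left out the number lower in the other ran from 26 to 35. The number higher in both, 0 in the main fit, was 8 with a mean CPM of at least 5. It was 3 with nuclear protein-coding genes, 3 with length-scaled counts, 23 with library size alone and 24 with limma. The median log2 fold change of the 39 was 0.19 with library size alone, -0.058 with a mean CPM of at least 5 and 0.21 with limma, and ran from -0.29 to -0.15 with 1 library left out. Under the other settings the direction of that median and the absence of calls held. Relative to the median of all genes tested, some genes crossed to the other side of it, and the cause was not tested. With a mean CPM of at least 5 they were NOP10 (0.17), POLR1B (0.025), UTP15 (0.19), WDR75 (0.073), RRP9 (0.013), NOP14 (0.014), LTV1 (0.000125), NOP16 (0.069), RRP1 (0.14) and PPAN (0.098). With nuclear protein-coding genes they were NOP10 (0.062), UTP15 (0.082) and RRP1 (0.035). With limma on log2(TPM + 1) they were NOP10 (0.16), POLR1B (0.16), UBTF (0.026), UTP15 (0.28), WDR75 (0.045), NOP16 (0.0046), NOC2L (0.070) and PPAN (0.14). With length-scaled counts they were POLR1B (0.0027), UTP15 (0.11), WDR43 (-0.0055) and NOC3L (-0.0013). With no filter on low counts they were RRN3 (-0.30), WDR43 (-0.32), NOC4L (-0.22), NOC3L (-0.29) and PES1 (-0.33). With either shKLF5 library left out, the ranges that crossed it were NOP10 from -0.15 to 0.13, POLR1A from -0.57 to 0.043, POLR1B from -0.36 to 0.034, RRN3 from -0.067 to 0.18, UTP14A from -0.87 to 0.10, UTP15 from -0.062 to 0.095, WDR43 from -0.38 to 0.36, WDR75 from -0.25 to 0.031, NOC4L from -0.26 to 0.44, LTV1 from -0.42 to 0.034, RRP12 from -0.072 to 1.25, NOP16 from -0.30 to 0.060, NOC3L from -0.11 to 0.23, PES1 from -0.093 to 0.14 and RRP1 from -0.18 to 0.094. No paired analysis was possible because scramble has 1 library, so the groups share fewer than 2 replicate numbers. With 1 control library and 1 residual degree of freedom, only NCL and NPM1 had 95% intervals that left out 0. The lowest count of any of the 39 genes in any library was 257.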
